A study of Mus musculus with 12 samples.

Results

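Dendritic cells grown from mouse bone marrow and given LPS were compared between cultures given all-trans-retinoic acid and cultures given Ro41-5253, a blocker of retinoic acid receptors. The comparison uses 4 of the 12 arrays of the series, taken by their labels: 2 arrays of cultures with retinoic acid and LPS (RA+LPS) against 2 of cultures with Ro41-5253 and LPS (Ro+LPS). In each pair of arrays 1 is from a BALB/c and 1 from a BL6 culture, and wherever a pair of signals is given below the BALB/c value comes first. Marrow came from mice aged 6 to 8 weeks and was cultured for 10 days with GM-CSF at 20 ng/ml, a growth factor that yields dendritic cells and macrophages side by side. Retinoic acid was labelled 10 nmol and Ro41-5253 100 nmol, which the treatment labels give per ml and the design text without a volume, so the agents were compared at doses that differ 1 to 10 as labelled. LPS was at 1 ug/ml; when it was added is not given apart from the retinoids, which were present from the start. Cultures with LPS and no retinoid (control+LPS, 1 array of each strain) and the RA and Ro cultures without LPS (2 arrays each) are set beside the comparison where named. Separate animals for the cultures of a strain are not stated. With 1 array per condition and strain, p-values reflect only how far differences between conditions vary between the BALB/c and BL6 arrays. Scatter within a strain was not measured, and the scatter seen may be technical. Strain and any batch that runs with the replicate number cannot be told apart.

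Retinoic acid enters the nucleus, binds receptors that sit on DNA as pairs with retinoid X receptors, and switches on genes that include those for its own breakdown and storage. Ro41-5253 occupies the alpha form of the retinoic acid receptor and keeps it from being activated, also by retinoic acid made in the culture from serum vitamin A. LPS, from the envelope of Gram-negative bacteria, is sensed by Toll-like receptor 4 and makes dendritic cells mature, that is, raise the surface molecules with which they stimulate T cells and secrete cytokines.

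Signals are MAS5 probe set intensities, and 12429 genes were tested with limma on log2(signal + 16) in a model of the 6 conditions and strain. A difference is a log2 difference, RA+LPS minus Ro+LPS, relative to the median difference of all tested genes (-0.21), with the standard error of the model. Differences without LPS and between LPS states are relative to their own medians (-0.20 and -0.02). A gene counts as higher or lower when its Benjamini-Hochberg adjusted p lay under 0.05. The p-value and the direction of a call refer to the difference before the median is taken off. Printed differences and folds have it taken off, so they are not exactly what was tested. That of Gpx1, for example, was -0.93 as tested and is printed as -0.72. Background is the highest array median, 41.8, and no fold is given where a group's mean lay below it. For genes with 1 group below background the size of the difference depends on the offset of 16 and is no exact value: that of Arg1 was 6.98 with an offset of 1 and 5.55 with 64, and that of Icos -6.82 and -3.47, with both called each time. Array medians were 23.4 and 24.2 in RA+LPS and 22.5 and 29.8 in Ro+LPS. The adjusted p-values of single genes below all come from this limma fit.

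Retinoic acid and Ro41-5253 cultures given LPS differed widely. Of the 12429 genes, 2008 (16.2%) passed: 631 (5.08%) were higher and 1377 (11.1%) lower in RA+LPS. Of these, 236 were higher and 169 lower by at least 2 on the log2 scale. Counts of gene list members given below are to be read against the shares of all genes, 5.08% higher and 11.1% lower. The split between directions rested on the scaling: higher genes made up 31.4% of the calls at the deposited scaling and 49.5% after quantile normalization, with 1027 higher and 1046 lower, while 631 genes were higher and 1028 lower under both. Leaving out the BALB/c RA+LPS array left 1289 calls, leaving out the BALB/c Ro+LPS array 1130, and leaving out the BL6 Ro+LPS array 1112. Across genes, the BALB/c and BL6 differences correlated with a Pearson r of 0.668 and a Spearman rho of 0.565, a description over genes of the same 4 arrays, which are not independent replicates.

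**Figure D1:**
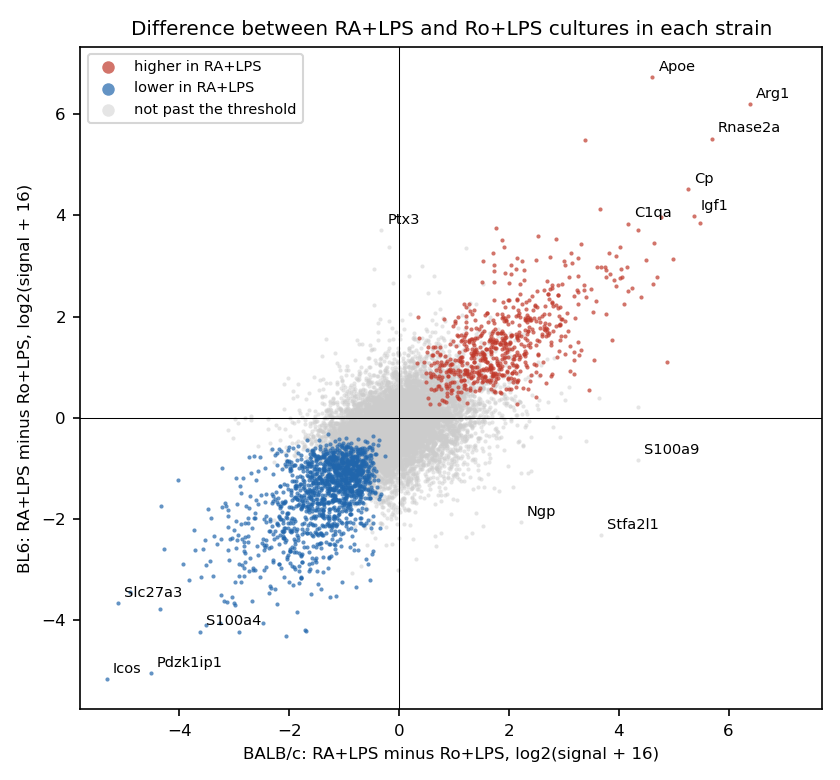
Each point is 1 of 12429 tested genes. The x axis gives the difference RA+LPS minus Ro+LPS in the BALB/c arrays and the y axis the same in the BL6 arrays, both on the log2(signal + 16) scale without removal of the median. Red points were higher in RA+LPS (631), blue points lower (1377) and grey points did not pass. Coloured points lie to the upper right and lower left of the zero lines, and S100a9, Ngp, Stfa2l1 and Ptx3 lie where the strains oppose each other. The p-values weigh agreement between the strains, so the place of the coloured points follows in part from the calls.

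The cultures carried the markers of the labelled cell type. Of 10 dendritic cell markers, 9 had signals above background on all 4 arrays, Flt3 being the exception. Of the 10, 4 were called lower in RA+LPS (Zbtb46, Ciita, Ccr7 and Cd86) and 1, Csf2ra, higher. Itgax, which encodes CD11c, had signals of 1744 and 1013 in RA+LPS, against 2079 and 1571 in Ro+LPS, and these groups overlapped. The T cell, B cell, NK cell, plasmacytoid and erythroid markers measured, 1 or 2 genes for each type, were at background on all 4 arrays. On the wider lymphocyte and plasmacytoid list, 2 of 11 tested genes were called lower, and both lay above background on all 4 arrays. Klrk1 had 452 and 256 in RA+LPS, against 1567 and 1328 in Ro+LPS (adjusted p = 0.00691). Tcf4 had 422 and 623 in RA+LPS, against 995 and 1529 in Ro+LPS (adjusted p = 0.0379), a call lost under quantile normalization. Of the mast cell and basophil markers, Cpa3 had 338 and Mcpt8 84.1 on the BL6 Ro+LPS array, and both lay below background on the rest of the 4. Cpa3 was called lower, a call lost under quantile normalization. The stromal marker Col1a2 had 254 on the BALB/c RA+LPS array and lay below background on the rest. The 8 macrophage markers summed to 29715 and 36899 in RA+LPS, against 3848 and 7757 in Ro+LPS and 21472 and 27628 in control+LPS. All 8 were measured and 7 were higher in RA+LPS; Mrc1 did not pass (adjusted p = 0.109). The 7 granulocyte markers summed to 3589 and 1186 in RA+LPS, against 317 and 2105 in Ro+LPS, and none passed. The RNA is from whole cultures, in which fewer cells of a type and less RNA per cell cannot be told apart, and the part of a shift in cell types in the results below was not tested.

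Against LPS cultures without retinoid, the arrays of the Ro41-5253 cultures stood further off than those of the retinoic acid cultures. Between Ro+LPS and control+LPS 2674 genes passed (21.5%), 1986 higher and 688 lower in Ro+LPS, and 847 to 1622 passed when any 1 of these 4 arrays was left out. Between RA+LPS and control+LPS limma called 0 genes (0%), with 1139 at an unadjusted p under 0.05 and a smallest adjusted p of 0.114. When only the 4 arrays of that comparison were fitted it called 9, without the BALB/c RA+LPS array 100, and without the BALB/c control+LPS array 1. Both comparisons share the control+LPS arrays, and each shares arrays with the main one, so their values are only set side by side. The difference between them was not tested apart from the comparison of RA+LPS with Ro+LPS itself.

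The 15 largest rises in RA+LPS held 3 genes of the macrophage and monocyte list (Apoe, C1qa and Trem2) and 5 of the alternative activation list (Arg1, Ccl24, Cxcl14, Igf1 and Retnla), and the others are on neither. Arg1, which encodes the arginase that converts arginine to ornithine, had signals of 4713 and 4088 in RA+LPS, 40.6 and 40.1 in Ro+LPS and 8715 and 3489 in control+LPS. Its Ro+LPS signals lay just below background on both arrays and its RA+LPS signals within the range of control+LPS. The difference was 6.50 ± 0.49 (adjusted p = 0.000103). Apoe, the apolipoprotein that macrophages secrete when loaded with lipid, had 11189.7 and 9979 in RA+LPS, against 443 and 78.2 in Ro+LPS, a difference of 5.88 ± 0.51 (adjusted p = 0.00015); its Ro+LPS value was lower in BL6. Igf1, a growth factor made by macrophages, had 3774 and 6505 in RA+LPS, against 75.6 and 395 in Ro+LPS (4.89 ± 0.34, adjusted p = 8.22e-05). The groups did not overlap for any of these 3 genes, which were picked for large differences of the same sign in both strains.

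Ceruloplasmin (Cp), the copper protein that oxidises iron, had signals of 3792 and 5375 in RA+LPS, against 82.96 and 220.0 in Ro+LPS, with a difference of 5.10 ± 0.55 (adjusted p = 0.000374). Cp was also brighter in RA+LPS than in control+LPS, where it had 1088 and 687, and that difference did not pass (adjusted p = 0.338). Rnase2a, an eosinophil-associated ribonuclease that macrophages also express, had 1988 and 1619 in RA+LPS, against 22.7 and 19.7 in Ro+LPS and the smallest adjusted p of the comparison (4.92e-06). None of the eosinophil markers Epx, Prg2 and Siglecf passed, and Epx and Ccr3 were below background on all 4 arrays. Prg2 had 252 on the BL6 Ro+LPS array, on which Cpa3 and Mcpt8 also stood out, and lay below background on the rest of the 4. Trem2, a lipid-sensing receptor of macrophages and microglia, had 391 and 755 in RA+LPS, against 3.92 and 43.2 in Ro+LPS (4.23 ± 0.38, adjusted p = 0.000187). Fabp3, a fatty acid carrier, had 1662 and 2912 in RA+LPS, against 117 and 152 in Ro+LPS (4.09 ± 0.31, adjusted p = 0.000103). Pkdcc, a secreted kinase, Fstl1, a secreted glycoprotein, and Sash1, an adaptor protein, were further rises, with differences of 4.27 ± 0.40, 4.01 ± 0.53 and 3.95 ± 0.47.

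The 15 largest falls held 2 genes of the maturation and costimulation list, Icos and Cd70. Icos, best known as the inducible costimulatory receptor of T cells, had signals of 3.11 and 7.22 in RA+LPS, against 747 and 813 in Ro+LPS, with 22.2 and 21.5 in control+LPS. Among the arrays with LPS it was thus above background only in Ro+LPS, while Cd3e and Cd3g, which mark T cells, were at background on all 4 arrays. Its difference was -5.03 ± 0.33 (adjusted p = 2.87e-05). Pdzk1ip1, a small membrane protein, had 123 and 120.1 in RA+LPS, against 3187 and 4462 in Ro+LPS (-4.57 ± 0.38, adjusted p = 0.000103). Slc27a3, a fatty acid transport protein, had 2.44 and 27.9 in RA+LPS, against 626 and 538 in Ro+LPS, and Tbc1d4, a regulator of vesicle traffic, had 134 and 163 in RA+LPS, against 4441 and 1920.2 in Ro+LPS. Both were low in RA+LPS on both arrays, with differences of -4.18 ± 0.47 (adjusted p = 0.000303) and -3.95 ± 0.46 (adjusted p = 0.000309). Pla1a, a phosphatidylserine lipase, was among the brightest of the falls, with 641 and 942 in RA+LPS, against 9352 and 8819 in Ro+LPS (-3.31 ± 0.31, adjusted p = 0.00015), 9.93-fold lower.

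Further falls in this group of 15 were Rtn1, a reticulum protein, at -3.85 ± 0.42, Fcmr, the receptor for IgM, at -3.60 ± 0.40, and the kinase gene Mapk13 at -3.44 ± 0.45. The adaptor gene Traf4 fell by 3.37 ± 0.54 and Scin, which encodes an actin-severing protein, by 3.24 ± 0.42. Adgrg6 and Gpr65, both G protein-coupled receptors, differed by -3.21 ± 0.33 and -3.20 ± 0.29, and Hepacam2, an adhesion molecule, by -3.17 ± 0.42. For each of these 8 genes both RA+LPS signals lay below both Ro+LPS signals. They were picked for large differences of the same sign in both strains, so this separation is no separate support. The share of all genes without overlap was not counted.

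**Figure D2:**
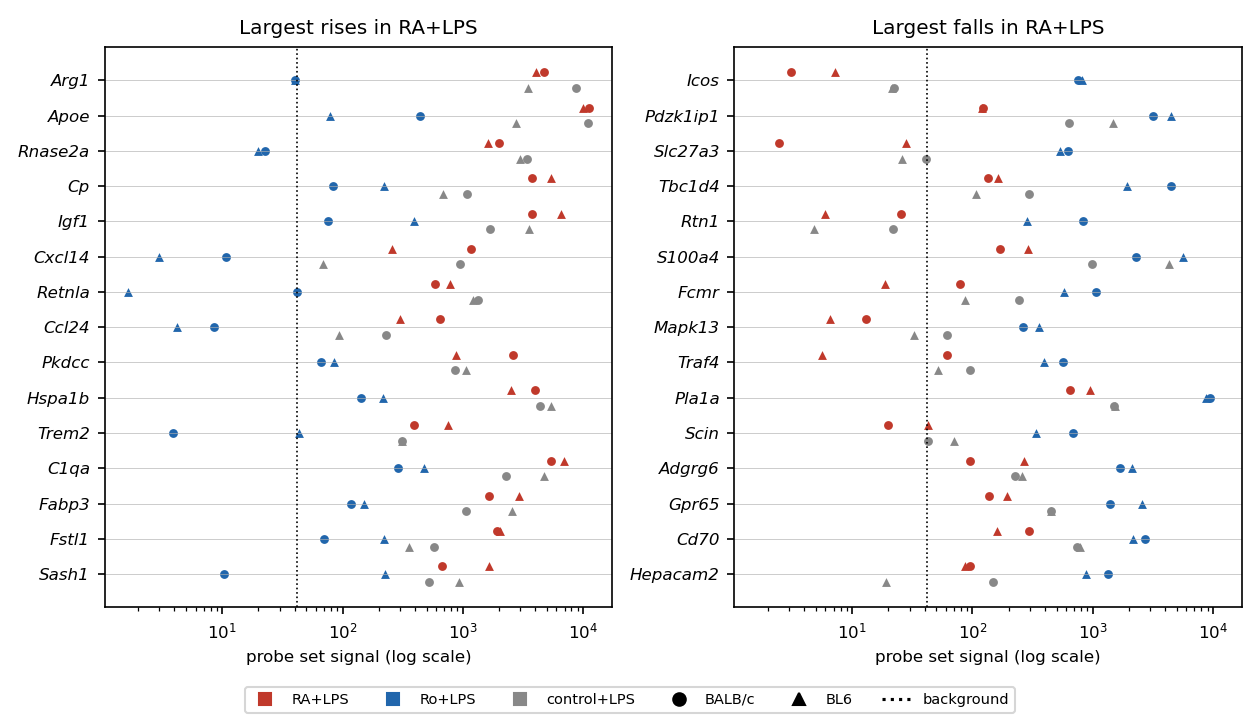
The x axes give the probe set signal on a log scale for the 15 largest rises (left) and the 15 largest falls (right) in RA+LPS against Ro+LPS. Red marks RA+LPS, blue Ro+LPS and grey control+LPS arrays; circles are BALB/c, triangles BL6 and the dotted line is background (41.8). Blue points stand apart from the red points in every row, as the genes were picked for large differences of the same sign in both strains.

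Of 21 tested genes of the retinoid pathway itself, 5 were higher (23.8%, against 5.08% of all genes) and 1 lower, with a median difference of 0.55. Dhrs3, the enzyme that turns retinaldehyde back to retinol and is a known target of retinoic acid, had signals of 346 and 548 in RA+LPS, 74.6 and 72.6 in Ro+LPS and 293 and 217 in control+LPS. The difference was 2.54 ± 0.28 (adjusted p = 0.000501). Aldh1a2, which makes retinoic acid from retinaldehyde, had 3281 and 2057 in RA+LPS, against 1654 and 570.2 in Ro+LPS (1.61 ± 0.25, adjusted p = 0.00348), and the groups did not overlap. Rdh11, a retinol dehydrogenase, had 837 and 416 in RA+LPS, against 252 and 203 in Ro+LPS (1.53 ± 0.29, adjusted p = 0.0119), and its call did not hold when 1 array was left out (adjusted p = 0.0614 without the BALB/c RA+LPS array and 0.104 without the BALB/c Ro+LPS array). Rbp4, the retinol carrier of plasma, and Hic1, a transcriptional repressor, were the other two that rose. The receptor gene Rxrb was lower, with 352 and 210.4 in RA+LPS, against 788 and 513 in Ro+LPS (-0.97 ± 0.23, adjusted p = 0.00534). The count of higher members dropped to 2 without the BALB/c RA+LPS array, to 2 without the BALB/c Ro+LPS array and to 3 without the BL6 RA+LPS array.

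The receptors that retinoic acid and Ro41-5253 bind did not pass. Rara, the target of Ro41-5253, had signals of 27.8 and 16.7 in RA+LPS, against 69.6 and 19.4 in Ro+LPS, below background on 3 of the 4 arrays (adjusted p = 0.373). Rarb was below background on all 4 arrays, and Rarg had 136 and 150.1 in RA+LPS, against 184 and 279 in Ro+LPS (adjusted p = 0.419). Cyp26a1, the retinoic acid hydroxylase whose promoter is a textbook target of the receptor, stayed below background, with 24.7 and 21.8 in RA+LPS, against 3.12 and 5.74 in Ro+LPS (adjusted p = 0.177). Cyp26b1, its relative, had 89.8 and 235 in RA+LPS, against 82.8 and 118 in Ro+LPS and overlapping groups (adjusted p = 0.447). Tgm2, the tissue transglutaminase that retinoids raise in macrophages, had 9085 and 8373 in RA+LPS, against 6511 and 6389.7 in Ro+LPS; its groups did not overlap, and this probe set did not pass (adjusted p = 0.276), though it did under median centring. Of the other 5 kept probe sets of Tgm2, 2 were called higher and 0 had the opposite sign.

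A retinoic acid receptor with its partner binds direct repeats of a 6-base element, classically with a 5-base spacer. Promoter windows from RefSeq (GRCm38.p6), 250 bases before to 50 after each gene's start, were searched on both strands for that direct repeat, which 32 of 32851 promoters held (0.0974%). It lay in promoters of 6 of the 10065 tested genes with a window, of which 2 were called, both higher: Blvrb and Ppbp, named after their values were seen. Of all tested genes 16.2% were called and 5.08% were higher, and 6 genes are too few to be set against these shares. Blvrb, which encodes biliverdin reductase B, had signals of 4025 and 4704 in RA+LPS, against 1532 and 2343 in Ro+LPS (1.40 ± 0.17, adjusted p = 0.00117), and Ppbp, a chemokine of platelets and myeloid cells, had 325 and 92.9 in RA+LPS, against 12.95 and 33.6 in Ro+LPS (2.55 ± 0.60, adjusted p = 0.0218). The 3 stretches below end at or before the start site; capitals mark both half-sites with the spacer between them. They are shown to set the element of Cyp26a1, which stayed at background, beside those of the called genes, and a match is no evidence of binding.
Cyp26a1, chr19:37697756-37697807, plus strand: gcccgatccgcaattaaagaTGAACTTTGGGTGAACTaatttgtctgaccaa
Blvrb, chr7:27452379-27452417, plus strand: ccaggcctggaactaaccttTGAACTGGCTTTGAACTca
Ppbp, chr5:90768268-90768308, plus strand: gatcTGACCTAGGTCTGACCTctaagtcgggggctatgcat

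Phagocyte genes were higher as a group. Of 29 macrophage and monocyte genes tested, 18 (62.1%) were higher and 0 lower in RA+LPS, under quantile normalization as well, with a median difference of 1.82. Cd68, a lysosomal membrane protein of macrophages, had signals of 8166 and 9063 in RA+LPS, against 1037 and 1436 in Ro+LPS (3.01 ± 0.18, adjusted p = 2.87e-05). Selenop, a secreted selenium carrier, had 3079.6 and 3316 in RA+LPS, against 158 and 404 in Ro+LPS (3.78 ± 0.30, adjusted p = 0.000128). Csf1r, the receptor for macrophage colony-stimulating factor, had 6778 and 7296 in RA+LPS, against 819 and 2367 in Ro+LPS (2.53 ± 0.33, adjusted p = 0.00108). Adgre1, which encodes the F4/80 antigen, had 6769 and 6249 in RA+LPS, against 1519 and 2537 in Ro+LPS (1.93 ± 0.40, adjusted p = 0.015). For each of these 4 genes, all of them called, the groups did not overlap, which is no separate support. In each, the BL6 Ro+LPS array was brighter than the BALB/c one. The number of higher members lay between 12 and 16 when 1 of the 4 arrays was left out.

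On the list of Fc receptors and related genes, 6 of 10 tested were higher and 0 lower, with a median of 1.54. The 6 were the IgG receptor genes Fcgr1, Fcgr2b, Fcgr3 and Fcgr4, their signalling chain Fcer1g, and Milr1, a mast cell receptor that does not bind antibody. The IgM receptor gene Fcmr, not on that list, was lower, as given above. Fcgr4, an activating receptor for IgG2 antibodies, had signals of 1483 and 2328 in RA+LPS, against 44.9 and 360.1 in Ro+LPS (3.84 ± 0.50, adjusted p = 0.000901). Fcgr2b, the inhibitory receptor, had 6306 and 6623 in RA+LPS, against 763 and 2752 in Ro+LPS (2.35 ± 0.37, adjusted p = 0.00283), and Fcgr3, an activating one, 7932 and 7567 in RA+LPS, against 2207 and 3769 in Ro+LPS (1.63 ± 0.24, adjusted p = 0.00256). Activating and inhibitory receptors were thus both higher. The count was 3 without the BALB/c Ro+LPS array, in which Fcgr2b and Fcgr4 were at their lowest. Pattern recognition and lectin receptors gave 8 higher and 0 lower of 29 (15 higher under quantile normalization, 3 without the BALB/c Ro+LPS array), among them Clec4d, a receptor for mycobacterial glycolipids, with 5998 and 6581 in RA+LPS, against 1053 and 2418 in Ro+LPS (2.17 ± 0.29, adjusted p = 0.0012) and Tlr7, a sensor of single-stranded RNA, with 139 and 364 in RA+LPS, against 30.8 and 59.5 in Ro+LPS (2.24 ± 0.35, adjusted p = 0.00313).

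Complement and coagulation genes rose in 12 of 26 tested members, and 1, Plat, fell. C1qa and C1qc, 2 of the chains of the first complement component, had signals of 5435 and 6944 in RA+LPS, against 289 and 472 in Ro+LPS for C1qa and 2150.3 and 5374 in RA+LPS, against 201 and 482 in Ro+LPS for C1qc. Their differences were 4.20 ± 0.26 (adjusted p = 3.30e-05) and 3.58 ± 0.35 (adjusted p = 0.00028). The coagulation factor genes followed the same order: F10 had 6562 and 5434 in RA+LPS, against 391 and 783 in Ro+LPS (3.60 ± 0.30, adjusted p = 0.00015) and F7 had 675 and 2284 in RA+LPS, against 76.98 and 413 in Ro+LPS (2.87 ± 0.29, adjusted p = 0.000307). Cfb, of the alternative complement pathway, C3ar1, a receptor for a complement fragment, and F3, tissue factor, were also called. The count of higher members was 7 without the BALB/c Ro+LPS array.

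Lysosome genes rose in 17 of 34 tested members with 0 falls, and in 21 under quantile normalization, with a median difference of 0.90. Ctsa, a lysosomal protease, had signals of 6815 and 4983 in RA+LPS, against 1817 and 1831 in Ro+LPS (1.87 ± 0.15, adjusted p = 0.000174). Its other kept probe set had the opposite sign and did not pass. Hexa, a hexosaminidase that degrades gangliosides, had 6001 and 4523 in RA+LPS, against 1631 and 1750.0 in Ro+LPS (1.82 ± 0.16, adjusted p = 0.000216), and Atp6v0d2, a subunit of the proton pump, 2399 and 1378 in RA+LPS, against 125 and 279 in Ro+LPS (3.38 ± 0.41, adjusted p = 0.0007). The other called members included the cathepsin genes Ctsl, Ctsd, Ctsb and Ctsk and the membrane proteins Lamp1 and Lamp2. Without the BALB/c Ro+LPS array 11 members were higher.

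Lipid genes rose in 8 of 34 and fell in 2. Besides Apoe, the rises held Nceh1, a cholesterol ester hydrolase, with signals of 793 and 619.9 in RA+LPS, against 80.6 and 136 in Ro+LPS (2.77 ± 0.27, adjusted p = 0.000275), and Abca1, the cholesterol exporter, with 2970.2 and 2494 in RA+LPS, against 436 and 768 in Ro+LPS (2.41 ± 0.37, adjusted p = 0.00258). Lipa, the acid lipase of lysosomes, had 1456 and 3550.5 in RA+LPS, against 544 and 1022 in Ro+LPS (1.79 ± 0.24, adjusted p = 0.00155). Cholesterol synthesis went the other way: 9 of 20 genes were lower and 2 higher, with a median of -0.56. Mvk, mevalonate kinase, had 83.6 and 49.6 in RA+LPS, against 290.2 and 199 in Ro+LPS (-1.46 ± 0.24, adjusted p = 0.00116), and Idi1, an isomerase of the pathway, 1615 and 462 in RA+LPS, against 3358 and 2758 in Ro+LPS (-1.59 ± 0.36, adjusted p = 0.00632; 0.0706 without the BL6 Ro+LPS array). The synthesis result was the less stable of both: 4 of the 20 were lower under quantile normalization, 4 without the BL6 RA+LPS array, 4 without the BALB/c Ro+LPS array and 2 without the BL6 Ro+LPS array.

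**Figure D3:**
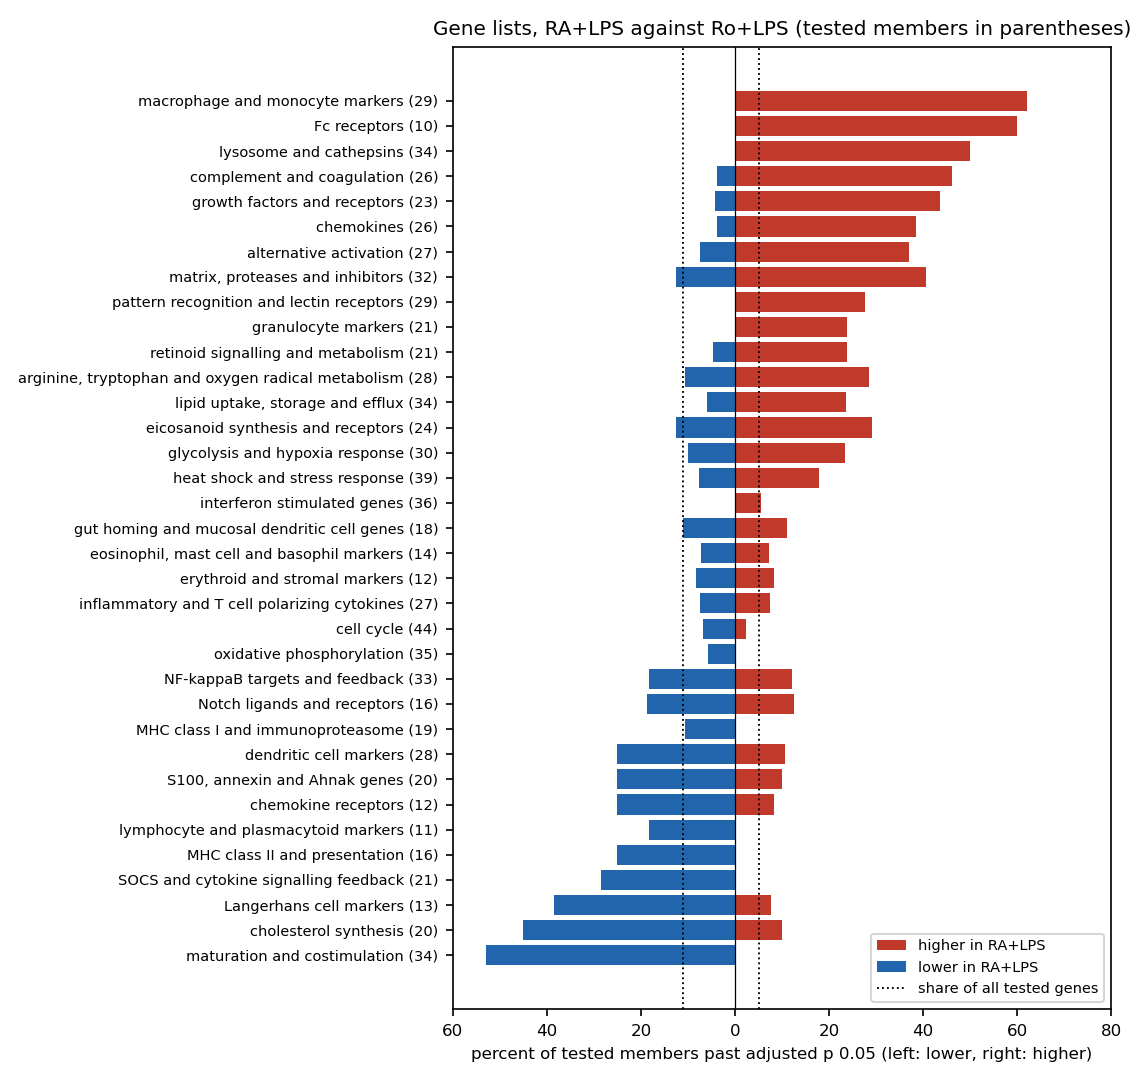
Bars give the percent of each gene list's tested members that were higher (red, to the right) or lower (blue, to the left) in RA+LPS against Ro+LPS at an adjusted p under 0.05; the number of tested members stands in parentheses. Dotted lines mark the share of all 12429 genes, 5.08% higher and 11.1% lower. Macrophage and monocyte markers have the longest bar to the right (62.1%) and maturation and costimulation the longest to the left (52.9%).

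Maturation and costimulation genes were lower. Of 34 tested, 18 (52.9%) were lower and 0 higher, with a median of -1.07; quantile normalization gave 16, and leaving out 1 array between 13 and 18. Cd80 and Cd86, the ligands with which dendritic cells engage CD28 on T cells, had signals of 964 and 593 in RA+LPS, against 3769.9 and 2857 in Ro+LPS for Cd80 and 3054 and 3926 in RA+LPS, against 11257 and 9951 in Ro+LPS for Cd86. The differences were -1.89 ± 0.25 (adjusted p = 0.000421) and -1.40 ± 0.29 (adjusted p = 0.00407). Cd70, the ligand of CD27, had 296 and 159 in RA+LPS, against 2714 and 2149 in Ro+LPS (-3.17 ± 0.30, adjusted p = 0.00015), and Tnfsf4, which encodes OX40 ligand, 318 and 277 in RA+LPS, against 1784 and 1665 in Ro+LPS (-2.27 ± 0.29, adjusted p = 0.00042). For all 4 ligands control+LPS signals lay between the other groups: Cd70 had 736 and 784 and Cd80 1348 and 1022. Cd83, Fscn1 and Relb, which mark mature dendritic cells, were among the 18.

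Other surface molecules of mature cells gave less stable calls or none. Cd40, the receptor for CD40 ligand, had signals of 6617 and 3339 in RA+LPS, against 9138 and 7330.2 in Ro+LPS and missed the threshold (adjusted p = 0.0639), though it passed under quantile normalization. Both RA+LPS signals lay below both Ro+LPS signals, and the 2 other kept probe sets of Cd40 were called lower. Cd274, which encodes PD-L1, had 5618 and 8070.5 in RA+LPS, against 5748 and 6847 in Ro+LPS, and the groups overlapped (adjusted p = 0.79). Ccr7, the chemokine receptor for travel to lymph nodes, had 7658 and 2879 in RA+LPS, against 12413 and 12282 in Ro+LPS (-1.18 ± 0.36, adjusted p = 0.0227). That call was lost under quantile normalization and when 1 array was left out (adjusted p = 0.0673 to 0.165 without the BL6 RA+LPS array, the BALB/c Ro+LPS array, the BL6 Ro+LPS array). MHC class II and presentation genes gave 4 lower (25%, against 11.1% of all genes) and 0 higher of 16. Of these calls 3 held under quantile normalization as well, and fewer class II genes were lower without the BL6 Ro+LPS array. Their transactivator Ciita had 291 and 194 in RA+LPS, against 748 and 881 in Ro+LPS (-1.50 ± 0.33, adjusted p = 0.00571; 0.0696 without the BL6 Ro+LPS array), while the class II chain H2-Aa had 11431 and 8542 in RA+LPS, against 12430.2 and 11974 in Ro+LPS and did not pass (adjusted p = 0.192).

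Transcription factors that specify dendritic cells were among the lower genes. Of 28 dendritic cell markers, 7 were lower (25%, against 11.1% of all genes) and 3 higher (10.7%, against 5.08%). The other 18 did not pass, and the median difference was -0.14. Irf8 had signals of 3395 and 2476 in RA+LPS, against 11254 and 10558 in Ro+LPS (-1.70 ± 0.21, adjusted p = 0.000307), Irf4 202 and 353 in RA+LPS, against 1573 and 1556 in Ro+LPS (-2.27 ± 0.38, adjusted p = 0.00149) and Zbtb46, which marks classical dendritic cells, 65.2 and 66.7 in RA+LPS, against 357 and 343 in Ro+LPS (-1.95 ± 0.31, adjusted p = 0.00108). The other kept probe set of Irf4 had the opposite sign and did not pass. Batf3, a factor of the cross-presenting lineage, was also called lower. The 3 higher members were Itgam, Csf2ra and Sirpa, which myeloid cells share, of which 0 were called without the BALB/c Ro+LPS array and 1 without the BL6 RA+LPS array. Stat4, which passes on interleukin 12 signals, had 649 and 314 in RA+LPS, against 5269 and 4283 in Ro+LPS (-3.14 ± 0.38, adjusted p = 0.000374). Of 13 Langerhans cell markers 5 were lower and 1, Tgfbr2, higher, with Runx3, a factor needed for that cell type, at 1542 and 756 in RA+LPS, against 3537 and 2935 in Ro+LPS (-1.35 ± 0.26, adjusted p = 0.00234); 3 were lower without the BALB/c RA+LPS array, 3 without the BALB/c Ro+LPS array and 3 without the BL6 Ro+LPS array.

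**Figure D4:**
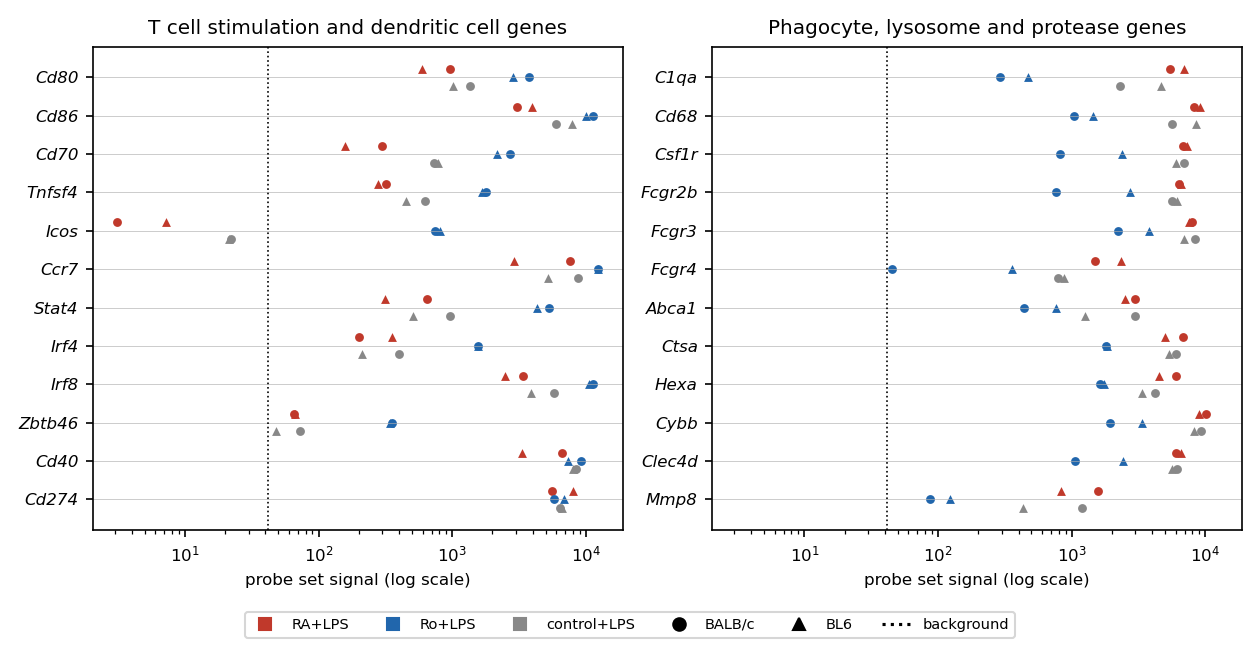
The x axes give the probe set signal on a log scale for 12 genes of T cell stimulation and dendritic cell identity (left) and 12 phagocyte, lysosome and protease genes (right), picked from the genes named in the text. Red marks RA+LPS, blue Ro+LPS and grey control+LPS; circles are BALB/c and triangles BL6, and the dotted line is background. Blue lies to the right of red in the left panel except for Cd274, whose groups overlap, and to the left of red in every row of the right panel. Nearly all of these genes were called, so the separation is a description.

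Of 27 inflammatory and T cell polarizing cytokine genes, 2 were higher (7.41%, against 5.08% of all genes) and 2 lower (7.41%, against 11.1%), shares near those of all genes, with 0 to 4 higher and 0 to 2 lower when 1 of the 4 arrays was left out. Il6 had signals of 6521 and 8052 in RA+LPS, against 7061 and 8483 in Ro+LPS (adjusted p = 0.922), Il1b 11856 and 12358 in RA+LPS, against 9057 and 10499.8 in Ro+LPS (adjusted p = 0.753) and Il12b 12094 and 6529 in RA+LPS, against 13439.8 and 11770.0 in Ro+LPS (adjusted p = 0.477). These 3 genes were bright on all 4 arrays, and a p that misses the threshold does not show equal levels: the difference of Il6 was 0.11 ± 0.47 and that of Il12b -0.29 ± 0.44. Il10 lay at background on both RA+LPS arrays, against 55.6 and 162 in Ro+LPS (adjusted p = 0.178), and Il23a had 98.3 and 39.9 in RA+LPS, against 64.4 and 52.3 in Ro+LPS (adjusted p = 0.873). Tnf had 755 and 7256 in RA+LPS, against 449 and 1278 in Ro+LPS (adjusted p = 0.227), so that the BL6 RA+LPS array stood above the other 3. The called genes were Inhba, an activin subunit, at 7418 and 7863 in RA+LPS, against 2313 and 2969 in Ro+LPS (1.74 ± 0.35, adjusted p = 0.0139; 0.0768 without the BL6 RA+LPS array and 0.125 without the BALB/c Ro+LPS array), with Csf1 on the higher side, and Ebi3 and Osm on the lower.

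Chemokine genes were more often higher than lower. Of 26 tested, 10 were higher and 1 lower, with a median of 0.91 (5 higher without the BALB/c Ro+LPS array, 6 without the BL6 RA+LPS array). Cxcl14, a chemokine made at barrier surfaces, had signals of 1178 and 256 in RA+LPS, against 10.6 and 2.97 in Ro+LPS (4.87 ± 0.60, adjusted p = 0.000684); in control+LPS it had 939.8 and 68.8. Ccl24, which attracts eosinophils, had 651 and 299.9 in RA+LPS, against 8.49 and 4.24 in Ro+LPS (4.57 ± 0.47, adjusted p = 0.000287), and Ccl8, a ligand for monocyte receptors, 428 and 1439 in RA+LPS, against 38.95 and 163 in Ro+LPS (3.23 ± 0.32, adjusted p = 0.000282). The single lower gene, Cx3cl1, encodes the membrane-bound fractalkine and had 71.5 and 91.4 in RA+LPS, against 420.3 and 331 in Ro+LPS (-1.80 ± 0.27, adjusted p = 0.000844). Among 12 receptors 3 were lower (1 without the BALB/c Ro+LPS array, 1 without the BL6 Ro+LPS array), and Ccrl2, a decoy-type receptor, was higher with 9764 and 5863 in RA+LPS, against 2144 and 1635 in Ro+LPS (2.21 ± 0.23, adjusted p = 0.0004).

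Of 27 alternative activation genes 10 were higher and 2 lower, with a median of 1.02 and 6 higher without the BALB/c Ro+LPS array. They included Arg1, Igf1, Ccl24, Mmp12, Fn1 and Stab1. Retnla, a secreted protein induced by interleukin 4, had signals of 592 and 774 in RA+LPS, against 41.9 and 1.63 in Ro+LPS (4.65 ± 0.97, adjusted p = 0.0107), and its call was lost when 1 array was left out (adjusted p = 0.0626 to 0.0791 without the BL6 RA+LPS array, the BALB/c Ro+LPS array, the BL6 Ro+LPS array). Matrix, protease and inhibitor genes gave 13 higher and 4 lower of 32 (6 higher without the BALB/c Ro+LPS array, 8 without the BALB/c RA+LPS array). Mmp8, a collagenase, had 1578 and 829.7 in RA+LPS, against 86.8 and 122 in Ro+LPS (3.49 ± 0.41, adjusted p = 0.000599), and Timp2, an inhibitor of such proteases, 1180.5 and 1426 in RA+LPS, against 159 and 494 in Ro+LPS (2.34 ± 0.34, adjusted p = 0.00205). Of the 4 other kept probe sets of Timp2, 0 were called and 0 had the opposite sign. Its call was lost when the kept probe sets were averaged. Adam19, a membrane protease, was lower with 113 and 82.96 in RA+LPS, against 1189 and 321 in Ro+LPS (-2.29 ± 0.34, adjusted p = 0.000862). Growth factor genes and their receptors were higher in 10 of 23 and lower in 1, Nrg1, whose call was lost without any 1 of the 4 arrays. Among the higher ones was Hbegf, a ligand of the epidermal growth factor receptor, with 790.4 and 510.0 in RA+LPS, against 113 and 111 in Ro+LPS (2.55 ± 0.30, adjusted p = 0.000657); 5 were called higher without the BALB/c Ro+LPS array and 6 without the BL6 RA+LPS array.

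Metabolic genes split. Of 28 genes for arginine, tryptophan and oxygen radicals 8 were higher and 3 lower. The higher ones included Nos2 as well as Arg1. Cybb, the catalytic subunit of the phagocyte oxidase, had signals of 10182 and 8986 in RA+LPS, against 1935 and 3379 in Ro+LPS (2.10 ± 0.25, adjusted p = 0.000782), and Gpx3, a secreted glutathione peroxidase, 898 and 885 in RA+LPS, against 50.99 and 103 in Ro+LPS (3.55 ± 0.39, adjusted p = 0.00042). Gpx1, its cytosolic relative, was lower with 4926 and 6336 in RA+LPS, against 10206 and 11144 in Ro+LPS (-0.72 ± 0.13, adjusted p = 0.000907). Of 24 eicosanoid genes 7 were higher (4 without the BL6 RA+LPS array) and 3 lower: Ptges, the inducible prostaglandin E synthase, had 2461 and 3187 in RA+LPS, against 345 and 507 in Ro+LPS (2.90 ± 0.31, adjusted p = 0.0004), while Ptger4, a receptor for its product, had 562 and 611 in RA+LPS, against 4042 and 3184 in Ro+LPS (-2.37 ± 0.28, adjusted p = 0.000303). Glycolysis and hypoxia genes gave 7 higher (3 without the BALB/c Ro+LPS array) and 3 lower of 30. Hif1a, the hypoxia factor, had 4621 and 3276 in RA+LPS, against 1396 and 1444 in Ro+LPS (1.65 ± 0.24, adjusted p = 0.00234) and Hk2, a hexokinase, 2581 and 1827 in RA+LPS, against 862 and 836 in Ro+LPS (1.55 ± 0.24, adjusted p = 0.00382), whereas Pfkp, a phosphofructokinase, was lower with 2269 and 1319 in RA+LPS, against 5116 and 4085 in Ro+LPS (-1.19 ± 0.21, adjusted p = 0.00161). Oxidative phosphorylation genes had few calls, with 0 higher and 2 lower of 35 (5.71%, against 11.1% of all genes) and a median of 0.00.

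The list of S100, annexin and Ahnak genes split, with a median of -0.14. Of 20 tested, 2 were higher (S100a1 and Ahnak2; 10%, against 5.08% of all genes) and 5 lower (25%, against 11.1%). S100a4, a calcium-binding protein of motile cells, had signals of 170.4 and 288 in RA+LPS, against 2289.8 and 5643 in Ro+LPS (-3.72 ± 0.44, adjusted p = 0.000374), and its relative S100a6 327 and 624 in RA+LPS, against 1434 and 3499.8 in Ro+LPS (-2.06 ± 0.26, adjusted p = 0.000372). In both genes BL6 signals were higher than BALB/c ones on either side. Of 21 genes of signalling feedback, among them SOCS proteins, dual-specificity phosphatases and Pias3, an inhibitor of STAT factors, 6 were lower and 0 higher, with a median of -0.53 (3 lower without the BL6 Ro+LPS array). Dusp5 had 1228 and 309.5 in RA+LPS, against 6366 and 3589 in Ro+LPS (-2.71 ± 0.32, adjusted p = 0.000307) and Socs2 2542 and 2261 in RA+LPS, against 7264 and 6942 in Ro+LPS (-1.35 ± 0.26, adjusted p = 0.00256). Among 33 NF-kappaB targets and feedback genes 4 were higher (12.1%, against 5.08% of all genes) and 6 lower (18.2%, against 11.1%). Under quantile normalization 3 were lower, and fewer than 6 were lower without 1 Ro+LPS array of either strain. Irak3, an inhibitor of Toll-like receptor signalling, was higher with 1382 and 1058 in RA+LPS, against 214 and 336 in Ro+LPS (2.31 ± 0.37, adjusted p = 0.0031). Of 36 interferon stimulated genes 2 were higher and 0 lower at a median of 0.80, and this count moved most with the scaling and the arrays: 8 under quantile normalization, 13 under median centring, 11 without the BL6 Ro+LPS array, 0 without the BALB/c Ro+LPS array and 0 without the BL6 RA+LPS array.

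Among the other lists, gut homing and mucosal dendritic cell genes, a set retinoic acid is known to steer in the intestine, gave 2 higher and 2 lower of 18 (11.1% each way, against 5.08% and 11.1% of all genes): Ltbp3, which stores latent transforming growth factor beta, had signals of 592 and 350.1 in RA+LPS, against 109.6 and 39.8 in Ro+LPS (2.70 ± 0.30, adjusted p = 0.000451), and Itgb8, the integrin chain that activates it, 38.5 and 23.4 in RA+LPS, against 628 and 222 in Ro+LPS (-2.87 ± 0.48, adjusted p = 0.0017). Itgae, which encodes CD103, was below background on all 4 arrays. Granulocyte genes were higher in 5 of 21 (23.8%), with fewer higher when the BALB/c array of RA+LPS or of Ro+LPS was left out. Cell cycle genes were higher in 1 of 44 (2.27%) and lower in 3 (6.82%), both under the shares of all genes. Notch genes were higher in 2 of 16 (12.5%) and lower in 3 (18.8%), with fewer lower when any 1 of the 4 arrays was left out. MHC class I genes gave 0 higher and 2 lower of 19 (10.5%, against 11.1% of all genes), and lymphocyte and plasmacytoid markers 0 and 2 of 11 (18.2% lower). Eosinophil, mast cell and basophil markers gave 1 and 1 of 14 (7.14% each), and erythroid and stromal markers 1 and 1 of 12 (8.33% each). With 1 or 2 calls in a direction, these counts do not set the lists apart from all genes.

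The next question was whether the difference between RA and Ro cultures was the same with and without LPS. Without LPS 953 genes passed (7.67%), 326 higher and 627 lower in RA cultures, and 424 to 464 passed when any 1 of these 4 arrays was left out. The test of the difference between both states called 79 genes (0.636%), 55 towards higher and 24 towards lower values in RA with LPS than without, and 1382 had an unadjusted p under 0.05. Of the 79, 38 were called only with LPS, 26 only without and 15 in both states, 8 of them in opposite directions. This count depends on single arrays: it lay between 2 and 75 when 1 of the 8 arrays was left out, at 2 without the BALB/c Ro+LPS array and at 24 or fewer without any 1 of 6 of them.

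C1qa was called between the agents only in cultures with LPS. Without LPS it had signals of 13117 and 12715 in RA and 10869 and 10020.0 in Ro, both RA signals above both Ro signals. The difference was 0.51 ± 0.26, or 0.31 before the median was taken off, and did not pass (adjusted p = 0.556). The highest signals on these arrays were 16293 to 17287. Whether signals this near them understate a difference was not tested. With LPS the RA+LPS signals were 5435 and 6944 and those of Ro+LPS 289 and 472, so that only the Ro+LPS arrays were low. The difference between states was 3.71 ± 0.37 (adjusted p = 0.00351), and it passed in 7 of 8 fits that left out 1 array. C1qc (3.02 ± 0.50, adjusted p = 0.0305) had the same order of signals, and passed in 1 of those 8. F10 without LPS had 2426 and 1913 in RA, against 875 and 1425 in Ro, and a difference between states of 2.48 ± 0.42 (adjusted p = 0.0327) that passed in 2 of those 8 and in 6 of 10 other settings.

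The inducible heat shock genes Hspa1a and Hspa1b, which encode near-identical Hsp70 chaperones, behaved likewise. Without LPS Hspa1b had signals of 28.4 and 27.98 in RA, against 52.5 and 34.2 in Ro, at or near background. With LPS it had 3947 and 2510.5 in RA+LPS, 142 and 216 in Ro+LPS and 4337 and 5449 in control+LPS, so that it was bright wherever LPS was given without Ro41-5253. The difference with LPS was 4.25 ± 0.33 (adjusted p = 0.000125) and that between states 4.48 ± 0.47 (adjusted p = 0.00429). Hspa1a had 2910.1 and 1627 in RA+LPS, against 162 and 198 in Ro+LPS (3.69 ± 0.42, adjusted p = 0.000443), and a difference between states of 3.13 ± 0.59 (adjusted p = 0.0458). Of 8 fits without 1 array, 7 called the difference between states for Hspa1b and 1 for Hspa1a. The probes of one can bind transcripts of the other, so these 2 genes are not independent measurements. Of 39 heat shock and stress genes 7 were higher and 3 lower with LPS; the lower ones included Nr4a3, an immediate early nuclear receptor, with 1668 and 701 in RA+LPS, against 9250.4 and 5767 in Ro+LPS (-2.53 ± 0.31, adjusted p = 0.000392). The count of higher members was 4 without the BL6 RA+LPS array and 4 without the BL6 Ro+LPS array.

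The promoters of both Hsp70 genes hold the heat shock factor core GAANNTTC, shown in capitals in the stretch that runs from 20 bases before it to the start site (RefSeq, GRCm38.p6, both on the minus strand). They are printed to show how closely the pair match. The core, its own reverse complement and thus searched on both strands at once, occurs in 7.86% of all promoter windows of 300 bases. It lay in 713 tested genes, of which 121 were called, 40 higher and 81 lower. These shares were near those of all tested genes, of which 16.2% were called, 5.08% higher and 11.1% lower.
Hspa1a, chr17:34972157-34972280, minus strand: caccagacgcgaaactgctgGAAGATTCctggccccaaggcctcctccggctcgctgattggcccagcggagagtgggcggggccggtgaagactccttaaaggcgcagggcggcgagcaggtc
Hspa1b, chr17:34959239-34959362, minus strand: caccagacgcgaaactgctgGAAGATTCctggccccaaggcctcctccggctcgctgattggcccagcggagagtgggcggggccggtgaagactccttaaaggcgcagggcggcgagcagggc

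A few genes turned round between states. Apoc2, a lipoprotein cofactor of lipoprotein lipase, had signals of 4346 and 5194 in RA, against 195 and 299 in Ro, without LPS. With LPS it had 916 and 1631 in RA+LPS, against 5545 and 3413 in Ro+LPS, so the higher group changed from RA to Ro. The difference between states was -6.00 ± 0.47 (adjusted p = 0.000728), and it passed in all 10 other settings and all 8 fits without 1 array. Within the LPS cultures its difference was -1.61 ± 0.33 (adjusted p = 0.00409; 0.0523 without the BALB/c Ro+LPS array). Pdgfc, a platelet-derived growth factor, turned likewise, with 830.0 and 1056 in RA and 72.98 and 169 in Ro without LPS and 45.6 and 86.9 in RA+LPS, against 267 and 292 in Ro+LPS, a difference between states of -4.76 ± 0.43 (adjusted p = 0.00149) that also passed in all of those fits.

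Other genes passed without LPS and not with it. Asgr2, a lectin receptor, had signals of 63.8 and 92.2 in RA, against 5628 and 5941 in Ro, without LPS, and 5.83 and 13.7 in RA+LPS, against 38.8 and 23.01 in Ro+LPS, all below background. Cd207, which encodes langerin, the lectin of Langerhans cells, had 3.19 and 2.12 in RA and 1649 and 298 in Ro without LPS, and was below background on all 4 arrays with LPS. The differences between states were 5.13 ± 0.67 (adjusted p = 0.0153) and 4.61 ± 0.79 (adjusted p = 0.0327). The call passed in 4 of 8 fits without 1 array for Asgr2 and in 1 for Cd207, and in 9 and 4 of 10 other settings. Cd40 had 109 and 65.5 in RA and 940.5 and 551 in Ro without LPS, so that its difference there, -2.67 ± 0.26 (adjusted p = 0.000205), was larger in size than with LPS, where all 4 arrays were bright, the groups did not overlap and the 2 other kept probe sets were called lower. Its difference between states, 2.09 ± 0.37 (adjusted p = 0.0356), passed in 0 of 8 fits without 1 array and in 4 of 10 other settings. Icos and Pdzk1ip1 were lower in RA in both states; the difference between states, -2.74 ± 0.46 (adjusted p = 0.0305) and -3.09 ± 0.54 (adjusted p = 0.0327), passed in 1 of 8 fits without 1 array for each, and in 6 and 4 of 10 other settings.

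**Figure D5:**
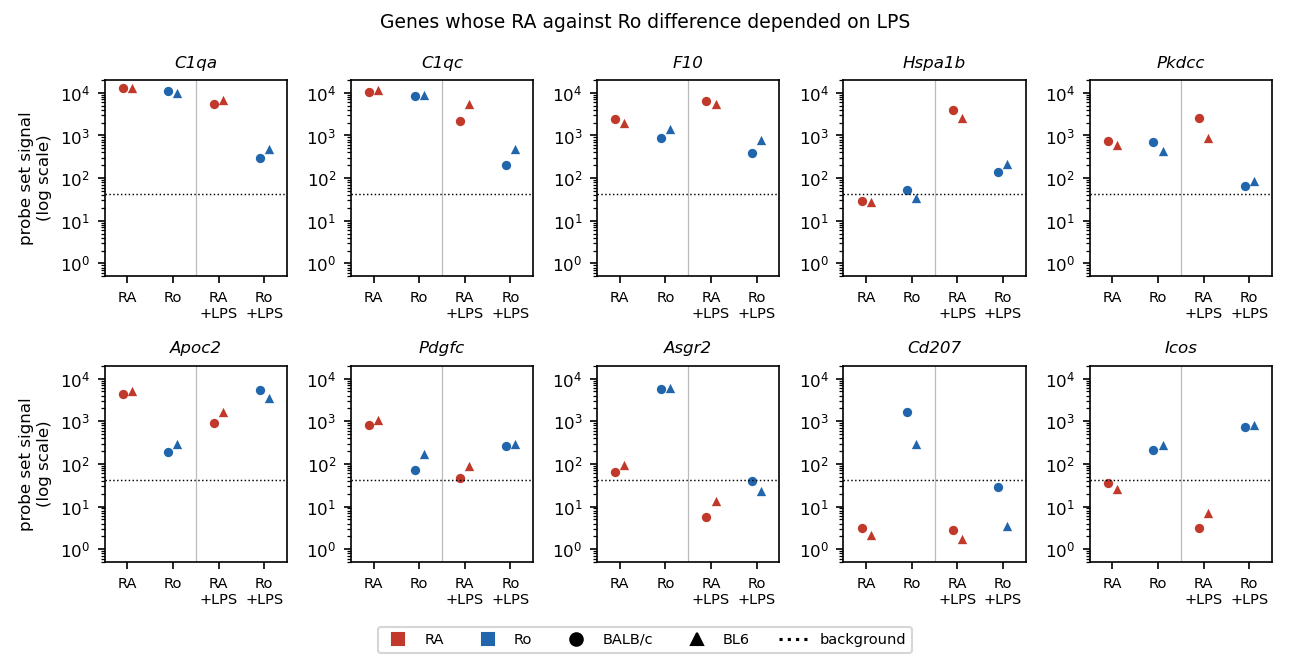
Each panel gives the probe set signal (log scale) of 1 gene in RA and Ro cultures without LPS (left pair) and with LPS (right pair); circles are BALB/c, triangles BL6, red RA and blue Ro, and the dotted line is background. For C1qa, C1qc, Hspa1b and Pkdcc red and blue lie close together without LPS and apart with it, for Apoc2 and Pdgfc the order turns round, and for Asgr2 and Cd207 all points with LPS lie below background.

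Some genes of neutrophils went opposite ways in the strains. S100a9, a calcium-binding protein abundant in neutrophils, had signals of 1479.9 and 319.6 in RA+LPS, against 57.2 and 582 in Ro+LPS, so that RA+LPS was higher in BALB/c and lower in BL6. S100a8, its partner, had 1262 and 577 in RA+LPS, against 104 and 794 in Ro+LPS, Ngp, a neutrophil granule protein, 413 and 108 in RA+LPS, against 76.2 and 501 in Ro+LPS, and Stfa2l1, a stefin, 654 and 26.2 in RA+LPS, against 36.4 and 195 in Ro+LPS. Ptx3, a pentraxin of the acute response, had the reverse order with 5.32 and 3911 in RA+LPS, against 10.7 and 285 in Ro+LPS and was below background on both BALB/c arrays. These 5 have the largest gaps between the strains' differences among 1332 bright genes of opposed sign. The opposition was not tested.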

How the data were processed

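The authors deposited 1 table of probe set intensity values on a linear scale for 12 single-colour Affymetrix arrays of mouse cultures, made with MAS5 per the submitters' processing notes; its version and target are not given in the sources used here. Of 45101 probe sets, 34945 had 1 gene in the platform annotation, 932 several, 9160 none and 64 were controls; 34741 of the first matched RefSeq by identifier. Probe sets above their array's median on at least 2 arrays were kept, the brightest per gene was used, and 12429 of 18193 genes were tested on log2(signal + 16) with limma 3.58.1 (R 4.3.3; lmFit, eBayes with an intensity trend) over 12 arrays, with 6 conditions and strain as terms. Strain pairs the arrays by label; the strain differences of condition pairs correlated with r from 0.297 to 0.696 (15 pairs). The members, the 35 gene lists (862 of 1037 entries tested) and the tests were chosen with earlier results of these data known. Named genes are the 15 largest rises and falls with a shared sign in both strains and a higher mean of at least 200, up to 4 members per list, a fixed set, and the genes of the LPS-state and strain comparisons; of 170, 143 passed. Of these 143, 65 had other kept probe sets, and in 2, Irf4 and Ctsa, one had the opposite sign. The limma code was tested on simulated data. Alternatives were another scaling, offset, filter, probe set choice, moderation, block or sample set, and each array left out. Tables came from pandas 2.3.3 and figures from matplotlib 3.10.9 (Python 3.11.15).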

Additional observations from a re-analysis of the deposited data

Results flagged for a closer look

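The difference between RA and Ro cultures was tested for a change between LPS states, and 79 genes passed. The values here are log2 differences, with LPS minus without, relative to the median gene. Towards higher values in RA with LPS were Asgr2 (5.13), Cd207 (4.61), Bpifc (4.56), Hspa1b (4.48), Sh3tc1 (4.21), Pkdcc (3.87), Mki67 (3.72), C1qa (3.71), Cldn1 (3.35), Adm (3.22), Hspa1a (3.13), C1qc (3.02), F10 (2.48), Clec4e (2.37) and Cd40 (2.09). Towards lower values were Apoc2 (-6.00), Pdgfc (-4.76), Rap1gap2 (-3.17), Gm13889 (-3.15), Pdzk1ip1 (-3.09), Icos (-2.74) and Irf8 (-1.53). Apoc2 and Pdgfc passed in all 18 other fits tried, Hspa1b and C1qa in 17 of 18 and Irf8 in 3 of 18.

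The difference RA+LPS minus Ro+LPS had opposite signs in BALB/c and BL6 in 1332 bright genes, which was not tested. The 5 largest gaps between the strains were 6.00 log2 units for Stfa2l1, 5.19 for S100a9, 4.27 for Ngp, 4.03 for Ptx3 and 3.86 for S100a8. Groups of 2 arrays are too small to flag a single array as far from its group.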

How the results depend on the processing

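Of 143 named genes past the threshold, 90 kept their call under every alternative listed for them, and 0 turned their sign. The number of calls was 2008 for RA+LPS against Ro+LPS; leaving strain out (no replicate block) gave 877, and leaving out 1 array 1112 to 1876. Median centring, added after the data were seen, gave 1153 higher and 917 lower. The 79 calls between LPS states became 141 under median centring, 18 with an offset of 1, 137 with 64, 36 with no filter, 32 over all probe sets, 32 with no intensity trend, 7 with no replicate block and 2 to 75 without 1 array. Without LPS, 953 calls became 434 with no replicate block, 1883 when its 4 arrays were fitted alone and 424 to 464 without 1 array. RA+LPS against control+LPS gave 9 when fitted alone and 0 to 100 without 1 array. Ro+LPS against control+LPS, 2674 calls, gave 961 with no replicate block and 847 to 1622 without 1 array; over all probe sets, most of which are tested without a filter, counts were 2663 for the main comparison and 3709 for this one. Fits without 1 array rest on fewer samples, and the lone array is assumed to vary like the others; other causes were not tested. Of the 143, fits without 1 array lost 14 to 26 calls, and the fit without strain lost 41. Signals near background limit genes such as Rara and Cyp26a1.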
